A study of Mus musculus with 4 samples.

Results

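Levels of 34 genes for lysosomal hydrolases and lysosomal membrane proteins were compared between mouse embryonic stem (ES) cells in which the ultraconserved long noncoding RNA T-UCstem1 was knocked down (KD) and cells carrying a non-targeting control (NT). The genes came from a fixed list of symbols, and each was found in exactly 1 of the 27542 rows of the deposited gene table. The KD condition consisted of 3 separate clones, which the authors combined into 1 value per gene, and NT was 1 library. Both conditions were TBV2 ES cells kept with serum and the cytokine LIF, on feeder cells at high density according to the series description. How the knockdown was made is not given in the sources used here, and the level of T-UCstem1 itself was not analysed here. Since each condition has 1 value per gene, no SD or n accompanies any level. The ES cell identity of both conditions was checked by 4 markers, none of them marked as changed by the authors. Pou5f1, which encodes OCT4, was at 1078 FPKM in KD cells and 1036 FPKM in NT cells. Nanog was at 489 FPKM in KD cells and 434 FPKM in NT cells. Zfp42 was at 572 FPKM in KD cells and 511 FPKM in NT cells. Sox2 had the lower value in the KD, at 216 FPKM against 257 FPKM in NT cells. FPKM count sequenced fragments relative to transcript length and to the size of the library, so that levels can be compared between genes.

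The lysosome is the acidic organelle in which proteins, glycans and lipids delivered by endocytosis and autophagy are broken down. Its soluble hydrolases are made in the endoplasmic reticulum, tagged with mannose 6-phosphate and carried to the organelle by receptors, while heavily glycosylated membrane proteins line its inner face. The proton pump V-ATPase keeps the lumen acid, and transcription factors of the MiT family, of which TFEB is the best known, can raise many lysosomal genes together through an E-box in their promoters. In the early embryo, the extraembryonic endoderm that lines the yolk sac is a tissue specialised for endocytosis and lysosomal breakdown.

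Ctsl and Lgmn, both proteases, were marked higher in the KD, and most of the 34 genes were within 1.5-fold of their NT level. Ctsl, which encodes cathepsin L, and Lgmn, which encodes legumain, were the 2 of 32 tested genes that the authors' deposited table marked as changed by Cuffdiff. They make up 6.25% of the tested genes of the list, and 0.963% of all 15477 tested rows were marked higher. None of the 32 was marked lower, against 0.187% of all tested rows, and none was lower at an unadjusted Cuffdiff p under 0.05. At that unadjusted threshold 8 of 32 were higher, or 25%, against 6.10% of all tested rows, while 2.78% of all tested rows were lower at it. By size, 7 of the 32 genes that reached 1 FPKM in either condition were at least 1.5-fold higher in the KD on the log2(FPKM + 1) scale, or 21.9%, against 7.63% of 12330 named genes at that level. None was 1.5-fold lower, against 3.62% of those genes. At 2-fold, 3 were higher (Ctsh, Ctsl and Ctsc) and none lower, against 3.13% and 0.543% of the named genes. The median log2 fold of KD over NT was 0.079 over all 34 genes, 0.067 over these 32 and 0.022 over the 12330 named genes.

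**Figure D1:**
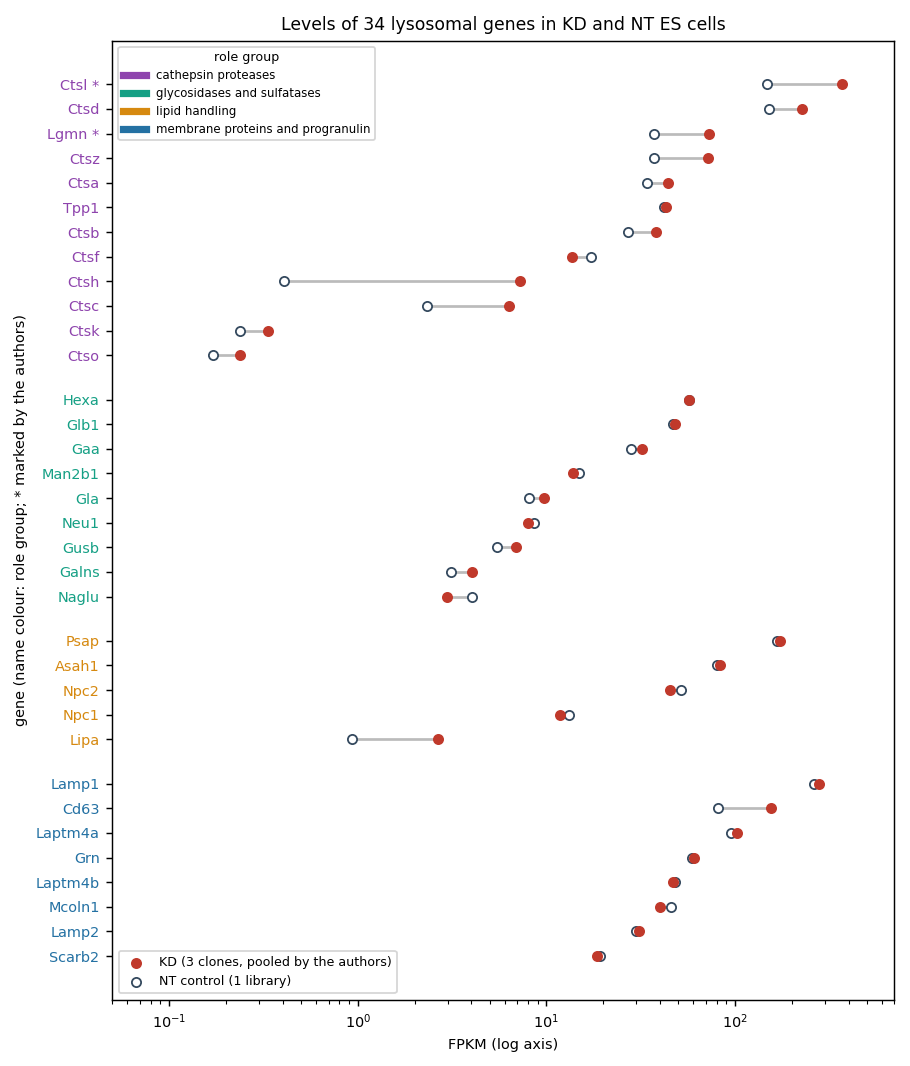
Levels of the 34 lysosomal genes in FPKM on a log axis, with filled red points for the KD (3 clones pooled by the authors), open points for the NT control (1 library), a grey line joining the pair of each gene, and stars at the genes marked in the authors' deposited table. The long lines belong to proteases, Lipa and Cd63, while the pairs of most glycosidases and membrane proteins nearly coincide, such as those of Hexa, with 57.2 FPKM for KD and 57.0 FPKM for NT.

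Cathepsin L, a papain-family cysteine protease that cleaves proteins internally, had the smallest p of the list. Ctsl (chromosome 13, 64464522 to 64471614 in mm9) was at 371 FPKM in KD cells and 147 FPKM in NT cells. The log2 fold was 1.33, and the authors' deposited table gives p = 5e-05 and q = 0.00815. This smallest p is shared by 95 tested rows. Ctsl was the most abundant gene of the list in the KD and the fourth in NT, after Lamp1, Psap and Ctsd. The placental cathepsins of mouse chromosome 13, close relatives of Ctsl, were listed at 0 in both conditions for all 9 genes looked up.

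Legumain, a protease that cuts after asparagine and processes several cathepsins into their mature forms, was the other gene marked higher. Lgmn (chromosome 12, 103632308 to 103677907) was at 73.1 FPKM in KD cells and 37.2 FPKM in NT cells, with a log2 fold of 0.96, and the authors' deposited table gives q = 0.0352. Both genes lie on chromosomes with little shift of their own, the median log2 fold of expressed genes being -0.017 on chromosome 13 and -0.022 on chromosome 12.

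Other proteases of the list had higher values in the KD but were not marked. Ctsh, an aminopeptidase of the papain family (chromosome 9, 89949105 to 89970933), was at 7.22 FPKM in KD cells and 0.408 FPKM in NT cells. Its log2 fold of 2.55 was the largest of the list, and q = 0.0553 from the authors' deposited table was the closest to the threshold among the unmarked genes. The NT value would correspond to about 20.0 fragments on a transcript of 1617 bases, if the most frequent low value in that library, 0.033 FPKM times kb, is the worth of 1 fragment. Ctsc, the dipeptidyl peptidase that activates granule serine proteases, was at 6.32 FPKM in KD cells and 2.33 FPKM in NT cells (log2 fold 1.14; q = 0.218 by the authors' deposited table). Ctsz, a carboxypeptidase, was at 71.9 FPKM in KD cells and 37.2 FPKM in NT cells (log2 fold 0.93; q = 0.377 by the authors' deposited table). The interval of the Ctsz row overlaps that of Nelfcd, at 29.4 FPKM in KD cells and 38.4 FPKM in NT cells.

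The remaining proteases differed less. Ctsd, the aspartic protease cathepsin D, was at 225 FPKM in KD cells and 151 FPKM in NT cells, just under 1.5-fold on the log2(FPKM + 1) scale at 0.58, with p = 0.0143 (unadjusted) and q = 0.305 by the authors' deposited table. Ctsb, the abundant cathepsin B of most tissues, was at 38.2 FPKM in KD cells and 27.0 FPKM in NT cells. Ctsa, a serine carboxypeptidase that also shields the sialidase NEU1 and beta-galactosidase from degradation, was at 44.3 FPKM in KD cells and 34.1 FPKM in NT cells, and its row overlaps the intervals of Neurl2 and Pltp. Tpp1, a tripeptidyl peptidase, was at 43.1 FPKM in KD cells and 42.2 FPKM in NT cells. Among the proteases of the list at 1 FPKM or more, the only one with a lower value in the KD was Ctsf, a papain-family member. Ctsf was at 13.7 FPKM in KD cells and 17.1 FPKM in NT cells. Ctsk, the collagen-degrading cathepsin of osteoclasts, and Ctso were not tested by the authors, and both stayed under 1 FPKM, at 0.333 and 0.236 FPKM in KD cells and 0.239 and 0.172 FPKM in NT cells.

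As a group, the 12 proteases held both marked genes and 6 of the 8 genes of the list with an unadjusted Cuffdiff p under 0.05 in the authors' deposited table. The 10 of them at 1 FPKM or more had a median log2 fold of 0.75, with 9 above 0 and 1 below. The 22 genes outside this group had a median of 0.040, with 14 above 0 and 8 below. Among the 12330 named genes 53.1% lay above 0. No test of the difference between these groups was made.

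**Figure D2:**
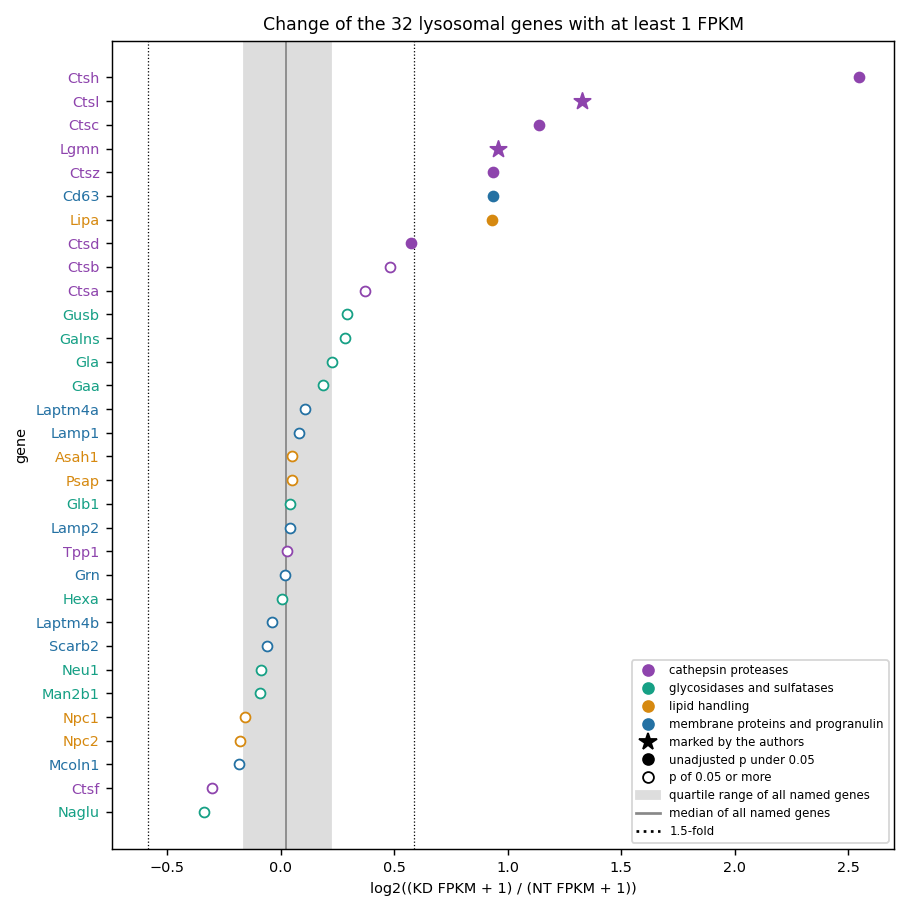
Log2 fold of KD over NT, with 1 FPKM added to each value, for the 32 genes with at least 1 FPKM, ordered by size and coloured by role, with the quartile range of all named genes (-0.16 to 0.22) in grey and 1.5-fold as dotted lines. Of the 8 filled points and stars at the top (unadjusted p under 0.05), 6 are proteases, and no gene reaches the lower dotted line.

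E-box letters in the promoters of the list are shown for the marked genes Ctsl and Lgmn and for Ctsd and Mcoln1. The windows of Ctsd and Mcoln1 hold TCACGTGA, the 8-letter form of the motif read by MiT factors. Windows of 250 bases before to 50 bases after the start site in RefSeq (build GRCm38.p6, not the mm9 of the gene table) were found for 28 of the 34 genes, in 31 windows. Asah1, Ctsb, Ctsh, Galns, Laptm4b and Npc1 had no entry. The letters CACGTG, which read the same on both strands, stood in the windows of 11 of 28 genes (39.3%), against 8.09% of all 27025 genes with a window and 12.2% of 9411 genes that also reached 1 FPKM in these cells. The longer TCACGTG, searched on both strands and overlapping the first, was found in 9 of 28 (32.1%), against 4.29% of all genes and 7.18% of those at 1 FPKM or more. Lgmn was among the genes with TCACGTG and Ctsl was not. TCACGTGA was found in 4 of 28 (14.3%), against 1.12% of all genes and 2.26% of those at 1 FPKM or more. Besides Ctsd and Mcoln1 these were Ctsa and Gla, whose windows are not shown. A gene with several windows was counted once if any window held the letters. The letters CACGTG were present in 2 of the 6 genes at least 1.5-fold higher in the KD that had a window, and in 9 of the 20 genes within 1.5-fold. A match is a description of the letters and says nothing of a bound factor. The sequences below are the 250 bases before the start site, 5' to 3' on the strand of the gene, with CACGTG in capitals. They are Ctsl at chr13:64370521-64370770 on the minus strand, Lgmn at chr12:102439093-102439342 on the minus strand, Ctsd at chr7:142387828-142388077 on the minus strand and Mcoln1 at chr8:3500269-3500518 on the plus strand.
Ctsl: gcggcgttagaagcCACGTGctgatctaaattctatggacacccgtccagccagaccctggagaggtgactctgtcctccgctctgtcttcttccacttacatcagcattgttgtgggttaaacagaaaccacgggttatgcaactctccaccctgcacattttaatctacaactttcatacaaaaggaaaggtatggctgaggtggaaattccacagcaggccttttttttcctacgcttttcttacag
Lgmn: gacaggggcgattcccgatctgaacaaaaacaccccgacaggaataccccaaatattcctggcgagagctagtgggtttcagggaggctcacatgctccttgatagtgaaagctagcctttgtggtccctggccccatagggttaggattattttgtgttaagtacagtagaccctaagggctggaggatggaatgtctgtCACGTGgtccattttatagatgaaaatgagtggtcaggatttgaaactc
Ctsd: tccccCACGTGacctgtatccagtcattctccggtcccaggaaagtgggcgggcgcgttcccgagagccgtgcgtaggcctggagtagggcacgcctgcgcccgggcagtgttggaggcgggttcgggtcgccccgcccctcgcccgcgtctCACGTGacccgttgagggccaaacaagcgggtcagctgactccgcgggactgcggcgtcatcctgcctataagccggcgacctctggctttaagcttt
Mcoln1: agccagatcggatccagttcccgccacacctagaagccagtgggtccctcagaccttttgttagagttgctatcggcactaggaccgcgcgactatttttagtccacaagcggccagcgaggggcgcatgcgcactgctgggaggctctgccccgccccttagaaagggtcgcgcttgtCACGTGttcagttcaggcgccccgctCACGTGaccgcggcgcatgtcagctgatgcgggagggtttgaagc
In Ctsl the motif begins 236 bases before the start listed in RefSeq, and in Lgmn 49 bases before the more downstream of its listed starts. Whether these cells use the listed starts was not tested. The window of the other Lgmn start held none. In Ctsd the 8-letter form begins 99 bases before the start and in Mcoln1 46 bases before it. Mcoln1 was at 40.3 FPKM in KD cells and 45.9 FPKM in NT cells.

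The enzymes that take sugars and sulfates off glycans and glycolipids differed little. None of the 9 glycosidases and sulfatases was marked, against 0.963% of all tested rows marked higher and 0.187% lower. None had an unadjusted Cuffdiff p under 0.05, against 6.10% of all tested rows higher and 2.78% lower. None reached 1.5-fold, against 7.63% of the named genes higher and 3.62% lower. With 9 genes, these counts are near the shares over all rows. The median log2 fold of the 9 genes was 0.042, from -0.34 to 0.29. Hexa, the alpha subunit of beta-hexosaminidase, was at 57.2 FPKM in KD cells and 57.0 FPKM in NT cells. Glb1, beta-galactosidase, was at 48.2 FPKM in KD cells and 46.8 FPKM in NT cells, in a row that it shares with Tmppe. These were the most abundant genes of the group, and their values in both conditions were within 1.5 FPKM of each other. Gaa, which degrades glycogen, was at 32.04 FPKM in KD cells and 28.0 FPKM in NT cells. Man2b1, an alpha-mannosidase, was at 13.9 FPKM in KD cells and 14.9 FPKM in NT cells. Gla, the alpha-galactosidase that is deficient in Fabry disease, was at 9.68 FPKM in KD cells and 8.12 FPKM in NT cells. Neu1, the sialidase that forms a complex with Ctsa and Glb1, was at 7.99 FPKM in KD cells and 8.55 FPKM in NT cells. The lowest levels of the group were those of Gusb, Galns and Naglu, which act in glycosaminoglycan breakdown. Gusb, beta-glucuronidase, was at 6.90 FPKM in KD cells and 5.45 FPKM in NT cells. Galns, a sulfatase acting on keratan and chondroitin sulfate, was at 4.03 FPKM in KD cells and 3.13 FPKM in NT cells. Naglu, which acts on heparan sulfate, was at 2.99 FPKM in KD cells and 4.04 FPKM in NT cells. Its log2 fold of -0.34 was the lowest of the list, with an unadjusted p of 0.408 in the authors' deposited table.

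Of the 5 genes for lipid breakdown and export none was marked, against 0.963% of all tested rows marked higher and 0.187% lower. The median log2 fold of the 5 genes was 0.048. Psap, the precursor of the saposins that help hydrolases reach sphingolipids, was at 173 FPKM in KD cells and 167 FPKM in NT cells. Asah1, acid ceramidase, was at 82.8 FPKM in KD cells and 79.9 FPKM in NT cells. Npc2 and Npc1, which hand cholesterol from the lumen to the membrane, both had lower values in the KD and were not marked. Npc2 was at 45.5 FPKM in KD cells and 51.7 FPKM in NT cells, and Npc1 at 11.7 FPKM in KD cells and 13.2 FPKM in NT cells. Lipa, the acid lipase that releases this cholesterol from esters, differed from the other genes of the group. It was at 2.68 FPKM in KD cells and 0.929 FPKM in NT cells, with a log2 fold of 0.93, p = 0.0182 (unadjusted) and q = 0.344 by the authors' deposited table.

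Among the 7 membrane proteins and progranulin, the tetraspanin gene Cd63 stood apart from the rest. Cd63, a marker of late endosomes and exosomes (chromosome 10, 128338036 to 128349874), was at 156 FPKM in KD cells and 81.0 FPKM in NT cells. Its log2 fold was 0.93, with p = 0.0011 (unadjusted) and q = 0.0757 by the authors' deposited table. Expressed genes of chromosome 10 had a median log2 fold of -0.16, so that the value of Cd63 was 1.10 above its chromosome. Lamp1, the most abundant gene of the list in NT and the main glycoprotein of the lysosomal membrane, was at 277 FPKM in KD cells and 262 FPKM in NT cells. Lamp2, its relative with a role in chaperone-mediated autophagy, was at 30.8 FPKM in KD cells and 29.9 FPKM in NT cells. Neither of these membrane glycoproteins was marked, and the authors' deposited table gives a q of 0.999 for each.

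The other membrane proteins were likewise close to NT. Laptm4a, a transporter-like protein of late endosomes and lysosomes, was at 103 FPKM in KD cells and 95.4 FPKM in NT cells, and its paralog Laptm4b was at 46.9 FPKM in KD cells and 48.1 FPKM in NT cells. Mcoln1, the calcium channel TRPML1, had values given above in a row shared with Pnpla6, so its own level is uncertain. Scarb2, the receptor LIMP2 that carries glucocerebrosidase to the lysosome, was at 18.5 FPKM in KD cells and 19.3 FPKM in NT cells. Grn, the secreted and lysosomal protein progranulin, was at 60.3 FPKM in KD cells and 59.4 FPKM in NT cells. The group of 8 had a median log2 fold of 0.030.

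The levels of the list spanned a wide range. The 34 genes summed to 2126 FPKM in KD cells and 1626 FPKM in NT cells, a ratio of 1.31. Ctsl made up 17.4% of the sum in KD cells and 9.05% in NT cells, and its own difference of 224 FPKM was 44.8% of the net difference of the sums. Cd63 and Ctsd followed with 14.9% each. Without Ctsl the sums were 1755 FPKM in KD cells and 1479 FPKM in NT cells, a ratio of 1.19. The proteases alone summed to 895 FPKM in KD cells and 496 FPKM in NT cells, and the 22 other genes to 1231 FPKM in KD cells and 1130 FPKM in NT cells. Apart from Ctsl, the genes at over 100 FPKM in both conditions were Lamp1, Ctsd and Psap. Without replicates, the order of neighbours such as Ctsz and Lgmn, both at 37.2 FPKM in NT cells, cannot be set against a spread.

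**Figure D3:**
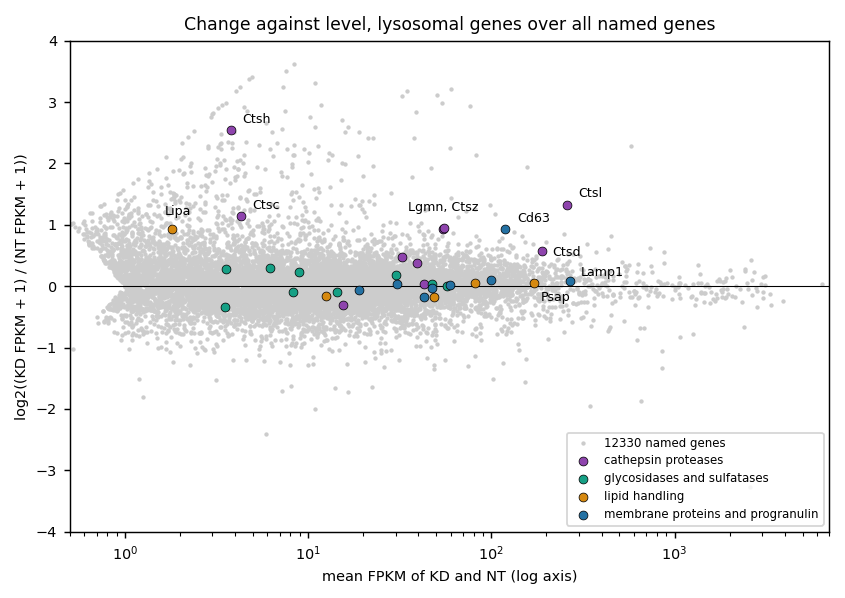
Log2 fold of KD over NT, with 1 FPKM added to each value, against the mean FPKM of both conditions on a log axis, for 12330 named genes (grey, of which 12 lie beyond the axis limits of 4) and the lysosomal genes coloured by role. Ctsl sits at a high level with a log2 fold of 1.33, whereas Ctsh, Ctsc and Lipa lie at low levels.

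The machinery around these genes was examined in 8 further lists, of 142 measured genes in all. Of the 122 that were tested none was marked by the authors, against 0.963% of all tested rows marked higher and 0.187% marked lower. At an unadjusted Cuffdiff p under 0.05, 6 were higher and 6 lower. The 6 higher are 4.92% of the tested genes of these lists and the 6 lower are the same share, against 6.10% higher and 2.78% lower among all tested rows. The V-ATPase was close to NT in its 16 subunits and accessory proteins, with a median log2 fold of 0.13. Of the 16, 15 lay above 0, or 93.75%, against 53.1% of the 12330 named genes. The largest values were those of Atp6v1f, at 149 FPKM in KD cells and 101 FPKM in NT cells, and of Atp6v1e1, at 105 FPKM in KD cells and 71.4 FPKM in NT cells. Both lie on chromosome 6, whose expressed genes had a median log2 fold of 0.26, and the median of the other 14 was 0.12. Of the V-ATPase genes 1 was higher at an unadjusted Cuffdiff p under 0.05, or 6.25%, near the 6.10% of all tested rows.

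Further hydrolases and membrane proteins of the lysosome, not among the 34, showed no common direction in their medians. The list of 28 other hydrolases and activators had a median of -0.035 over 25 genes at 1 FPKM or more. Of these 25 genes 12 lay above 0 and 13 below. None was at least 1.5-fold higher and 3 were at least 1.5-fold lower, against 7.63% and 3.62% of the named genes. Of the 26 tested genes of this list 1 was higher and 3 were lower at an unadjusted Cuffdiff p under 0.05, against 6.10% and 2.78% of all tested rows. The higher one, the sulfatase gene Arsb, stayed under 1 FPKM at 0.930 FPKM in KD cells and 0.243 FPKM in NT cells. Gm2a, an activator protein of ganglioside breakdown, was at 3.91 FPKM in KD cells and 6.51 FPKM in NT cells. The 15 expressed genes among 19 other membrane proteins had a median of 0.035. At an unadjusted Cuffdiff p under 0.05, 1 was lower and none higher, against 2.78% and 6.10% of all tested rows. That gene was Laptm5, a lysosomal protein known from blood cells, at 50.6 FPKM in KD cells and 78.7 FPKM in NT cells. Slc17a5, the sialic acid exporter, was at 5.04 FPKM in KD cells and 4.38 FPKM in NT cells.

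Genes that deliver enzymes to the lysosome or control its formation were also not marked. The delivery and fusion list had a median of -0.026 over 26 genes. At an unadjusted Cuffdiff p under 0.05, 1 was higher and 2 were lower, against 6.10% and 2.78% of all tested rows. Rab7, the GTPase of late endosomes on chromosome 6, was at 192 FPKM in KD cells and 116 FPKM in NT cells. Sorl1, a sorting receptor, was at 9.50 FPKM in KD cells and 15.6 FPKM in NT cells. The mannose 6-phosphate receptors were not marked. M6pr, also on chromosome 6, was at 127 FPKM in KD cells and 103 FPKM in NT cells, and Igf2r was at 28.1 FPKM in KD cells and 21.2 FPKM in NT cells.

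The list of regulators had a median of 0.0024 over 20 genes. At an unadjusted Cuffdiff p under 0.05, 1 was higher and none lower, against 6.10% and 2.78% of all tested rows. Tfeb was at 11.9 FPKM in KD cells and 14.7 FPKM in NT cells, Tfe3 at 20.9 FPKM in KD cells and 18.4 FPKM in NT cells, and Mitf at 7.40 FPKM in KD cells and 7.52 FPKM in NT cells. Tfec, the remaining MiT factor, was at 3.12 FPKM in KD cells and 0.218 FPKM in NT cells, with a log2 fold of 1.76 and q = 0.130 by the authors' deposited table. It lies on chromosome 6. Among regulators at 5 FPKM or more, the largest differences were those of Mlst8, an mTOR partner, at 4.83 FPKM in KD cells and 6.33 FPKM in NT cells, and Lamtor5, a Ragulator subunit, at 44.7 FPKM in KD cells and 35.8 FPKM in NT cells.

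Inhibitors of cysteine cathepsins and autophagy genes completed the comparison. Cst3, the secreted inhibitor cystatin C, was at 80.6 FPKM in KD cells and 43.7 FPKM in NT cells, with a log2 fold of 0.87, p = 0.0135 (unadjusted) and q = 0.298 by the authors' deposited table. Cstb, the intracellular inhibitor cystatin B, was at 93.5 FPKM in KD cells and 90.9 FPKM in NT cells, and the other 4 inhibitors looked up were under 1 FPKM. The 17 autophagy genes had a median of 0.11. At an unadjusted Cuffdiff p under 0.05, 1 was higher (5.88%) and none lower, against 6.10% and 2.78% of all tested rows. Gabarapl2, a protein of the autophagosome membrane, was at 411 FPKM in KD cells and 254 FPKM in NT cells. Atg9a, its lipid scramblase, was at 6.54 FPKM in KD cells and 11.0 FPKM in NT cells.

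**Figure D4:**
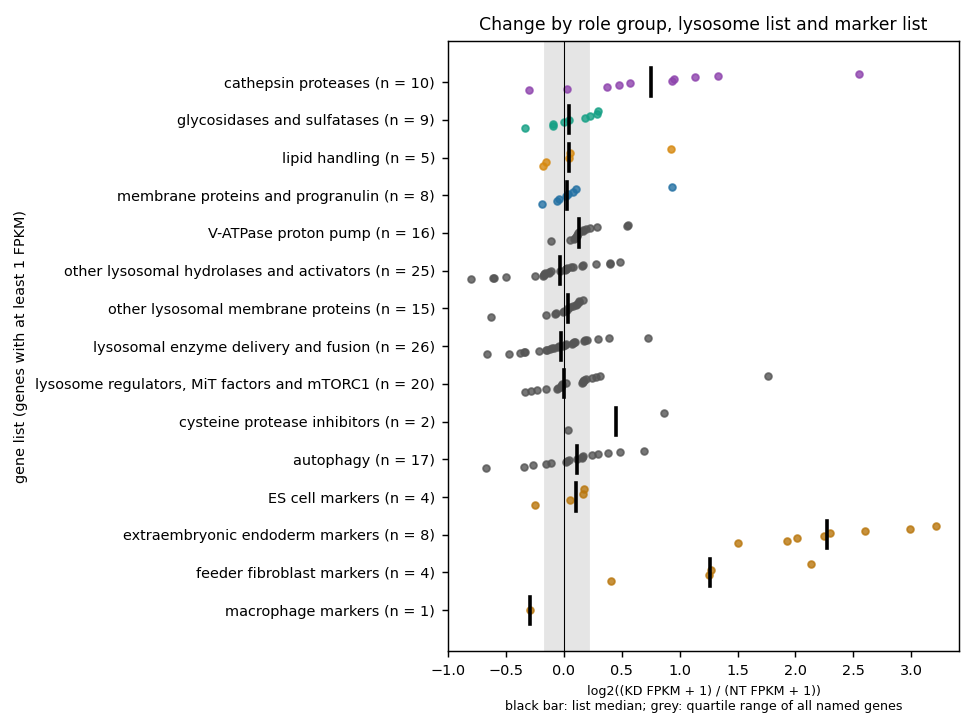
Log2 fold of KD over NT, with 1 FPKM added to each value, for every gene with at least 1 FPKM in the role groups of the 34 genes, the lysosome lists and the marker lists, with list medians as black bars and the quartile range of all named genes in grey. The protease group (median 0.75) lies to the right of the other lysosomal groups. The feeder fibroblast markers (median 1.26) and the extraembryonic endoderm markers (median 2.27) both lie further to the right.

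Markers of extraembryonic endoderm were also higher in the KD. All 8 extraembryonic endoderm markers examined were marked higher in the KD, against 0.963% of all tested rows. They were Gata4, Gata6, Sox17, Sox7, Dab2, Lama1, Lamb1 and Col4a1, and summed to 373 FPKM in KD cells and 53.4 FPKM in NT cells. Most of the KD sum came from Col4a1, Lama1 and Lamb1, at 109, 98.5 and 96.5 FPKM in KD cells. Gata4 was at 16.7 FPKM and Sox17 at 4.89 FPKM in KD cells. Like the other lists, the marker lists were chosen with earlier results of these data known. Of 8 feeder fibroblast markers 6 were tested, and 1, Fbln2 on chromosome 6, was marked higher. At an unadjusted Cuffdiff p under 0.05, 4 of the 6 were higher, or 66.7%, against 6.10% of all tested rows. Of the 4 at 1 FPKM or more, 3 were at least 2-fold higher, or 75%, against 3.13% of the named genes. The 8 fibroblast markers summed to 30.6 FPKM in KD cells and 10.01 FPKM in NT cells, with Lum listed at 0 in both. The 8 measured macrophage markers summed to 3.07 FPKM in KD cells and 3.36 FPKM in NT cells, with Tyrobp and Aif1 listed at 0 in both and Itgam, at 2.44 FPKM in KD cells and 3.20 FPKM in NT cells, the only one above 1 FPKM. In bulk RNA, more cells of a type and more RNA per cell cannot be told apart, and the part of endoderm or fibroblast cells in the values of the proteases was not tested. With 1 NT library, a level particular to that library and an effect of the knockdown cannot be told apart.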

How the data were processed

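RNA sequencing of total RNA was done on 3 KD clones and 1 NT library. The submitters' processing notes name TopHat, Cufflinks and Cuffdiff and the build mm9; their versions and options, and how libraries were scaled, were not stated there. Per the file headers, the deposited table holds 1 FPKM per gene for a condition named treated, taken as KD, and 1 for control, taken as NT. Each row also holds the p-value and q-value that the authors obtained from Cuffdiff, and their mark (largest marked q 0.0478).

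Rows were split at commas into symbols, failed rows were left out, and the row with the highest mean FPKM was kept per symbol. All 34 genes had 1 row, of which 2 carried another symbol and 6 overlap another row. Fold changes were recomputed as log2((KD FPKM + 1)/(NT FPKM + 1)). The pseudocount of 1 understates changes of low genes. Counts by size used genes with at least 1 FPKM in either condition. No test was run on the FPKM, since each condition has 1 value. Read numbers are not stated; low values in genes with 1 GENCODE M21 transcript gave the fragment estimate, which is uncertain, and no counting interval is given. The scoring was tested on simulated data. Python 3.11.15, numpy 2.4.6, pandas 2.3.3 and matplotlib 3.10.9 were used.

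The 34 genes, the lists, the motif letters and the named-gene rule were chosen with earlier results of these data known. All 34 genes are named. From each further list, marked genes and the 2 largest differences at 5 FPKM or more are named; Tfeb, Tfe3, Mitf, Tfec, M6pr, Igf2r and genes under 1 FPKM were added after their values were seen. Of the genes the rule names, 1 is not reported here. Alternatives were other pseudocounts, FPKM minimums, folds, row rules and centrings.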

Additional observations from a re-analysis of the deposited data

How the results depend on the processing

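The number of the 34 genes at least 1.5-fold higher in the KD was 7. It was 4 with a minimum of 10 FPKM and 3 at 2-fold, and between 6 and 8 under the other alternatives, which included leaving out Ctsl, leaving out chromosomes 6, 10 and Y, and centring each gene on its own chromosome. The last 3 were chosen after seeing the data. The 2 marked genes became 8 at an unadjusted Cuffdiff p under 0.05, none lower. The median log2 fold over all 34 genes, 0.079, ranged from 0.045 to 0.095. With no replicate spread, a shift under 0.1 on the log2 scale was treated as no change, and by that measure the medians of 6 of the 7 lists with expressed genes did not change. The median of the regulators, 0.0024, became -0.019 when centred on all named genes. That of the protease inhibitors, 0.45, was 0.065 with no FPKM minimum and 0.87 without chromosomes 6, 10 and Y, settings that add 4 genes under 1 FPKM and remove Cstb. For the 5 highest and 5 lowest genes none of 40 recomputed log2 folds changed sign. With pseudocounts of 0.1 and 5 FPKM, Ctsh was at 3.85 and 1.18, and Ctsc at 1.40 and 0.63. No paired analysis was possible because the deposited table holds 1 value per condition, and for the same reason no clone could be left out. Depth limits Ctsk, Ctso and other genes under 1 FPKM.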

Other observations

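Lysosomal genes with known tissue-restricted use were low in both conditions. Ctss and Ctse, proteases of antigen-presenting and gastric cells, were at 0.0438 and 0.0248 FPKM in KD cells, against 0.0724 FPKM in NT cells for Ctss, with Ctse listed at 0 there. Lamp3, a dendritic cell relative of Lamp1, was at 0.0315 FPKM in KD cells and 0.00929 FPKM in NT cells. The TRPML channel genes Mcoln2 and Mcoln3 were at 0.0463 and 0.339 FPKM in KD cells and 0.0376 and 0.0805 FPKM in NT cells. Laptm5, also known from blood cells, was by contrast at 50.6 FPKM in KD cells and 78.7 FPKM in NT cells, although Ptprc, the pan-leukocyte marker CD45, was at 0.0159 FPKM in KD cells and 0.00544 FPKM in NT cells.

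The chromosomes of the lysosomal genes differed in their own medians. Expressed genes of chromosome 6 had a median log2 fold of 0.26, with 81.1% above 0, and those of chromosome 10 a median of -0.16, with 33.3% above 0. None of the 34 genes lies on chromosome 6, and Cd63 and Psap lie on chromosome 10. Psap, at a log2 fold of 0.048, was 0.21 above the median of its chromosome.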
